A study of Mus musculus with 26 samples.

Results

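Cycling oligodendrocyte precursors (OPCs) of the mouse at P7 were described here as 121 single cells. They were chosen among 920 wells that held at least 1000 mRNA molecules, of 1514 such wells in the whole series. A cycling OPC held at least 3 molecules summed over Top2a, Mki67, Birc5, Ube2c, Cdk1 and Ccnb1 and at least 3 summed over Pdgfra, Cspg4, Lhfpl3, C1ql1 and Olig1. It also held fewer than 3 molecules of the collagen genes Col1a1, Col1a2 and Col3a1 with Lum and Dcn, and less than 0.4% of its molecules came from the myelin genes Mbp, Mag, Mog, Mobp and Mal. These conditions without the first left 643 P7 OPCs, of which 436 held no molecule of the 6 cycling genes and are called resting OPCs below. The other 86 OPCs lay between, 56 with 1 molecule and 30 with 2.

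The study asked whether OPCs of different regions and developmental origins resemble each other after birth. GFP+ cells were sorted and loaded on Fluidigm C1 chips of 96 wells, and molecules were counted by STRT-seq, which tags each mRNA molecule at its 5′ end before amplification. Spinal cord (4 chips, 34 cycling OPCs) and brain (2 chips, 9 cycling OPCs) came from P7 pups of the Pdgfra-H2BGFP knock-in line, whose nuclei carry GFP wherever the Pdgfra locus is active or the stable fusion protein persists. The other brain cells came from P7 mice of the Pdgfra-cre-ERT/RCE line, in which tamoxifen induces permanent GFP in cells that express Pdgfra at that time: given at E12.5 (txE12.5, 6 chips, 46 cycling OPCs) or at P3 (txP3, 3 chips, 32 cycling OPCs). All groups were untreated apart from tamoxifen, were picked up by activity of Pdgfra and so do not sample OPCs without it. Region was confounded with experiment among the reporter chips, and tamoxifen time was confounded with experiment among the traced chips, so that each pair cannot be told apart. The txE12.5 chips came from 2 experiments, numbered 161 (chips 5, 13 and 14) and 162 (chips 15, 16 and 17) in the deposited headers. The chip was the replicate throughout. Nothing in the labels says that chips of a group held different mice, so the spread between chips may be technical.

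OPCs are the dividing progenitors of the oligodendrocyte lineage, and in the first weeks after birth they expand in number before many of them leave the cell cycle and myelinate axons. During S phase a cell copies its DNA with the Mcm helicase, Pcna and DNA polymerases. During G2 and mitosis it builds a spindle with kinesins and the kinetochore, and separates its chromosomes under the control of Cdk1 with B-type cyclins. Genes of the 2 phases differ in their promoters: the CHR element (TTTGAA) and CCAAT boxes are known from G2 and mitosis genes, and E2F elements from S phase genes.

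Sequence around the start of 5 genes of the cycle is shown as an example. Each run below covers 170 bases, 150 before and 20 from the transcription start, from RefSeq on build GRCm38.p6, read 5′ to 3′ on the strand of the gene. Capitals mark TTTGAA, which reads as TTCAAA when it lies on the other strand. They also mark the letters CCAAT, which read there as ATTGG. The E2F forms TTTGGCGC, TTTCCCGC and TTTCGCGC are capitalised on either strand, but where forms overlap only the first is marked. In the Mcm6 window the first TTTGGCGC overlaps TTTCGCGC on the other strand (read as GCGCGAAA), whose last bases stay in lower case. The first pair were genes that chose the cells, Cdk1, the kinase of mitotic entry, and Ube2c, an enzyme of the anaphase-promoting complex pathway. The others were not used by the choice: Ccnb2 (a B-type cyclin), Mcm6 (a subunit of the replicative helicase) and Hells (a chromatin remodeller).
Cdk1 (chr10:69352893-69353062, minus strand): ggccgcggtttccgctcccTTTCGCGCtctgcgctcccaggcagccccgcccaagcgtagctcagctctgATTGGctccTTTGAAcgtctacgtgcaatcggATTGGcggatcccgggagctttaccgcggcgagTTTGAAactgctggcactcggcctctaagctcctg
Ube2c (chr2:164769779-164769948, plus strand): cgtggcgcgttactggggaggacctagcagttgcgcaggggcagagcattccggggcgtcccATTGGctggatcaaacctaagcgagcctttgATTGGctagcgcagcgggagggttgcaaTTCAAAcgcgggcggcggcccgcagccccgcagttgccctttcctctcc
Ccnb2 (chr9:70421535-70421704, minus strand): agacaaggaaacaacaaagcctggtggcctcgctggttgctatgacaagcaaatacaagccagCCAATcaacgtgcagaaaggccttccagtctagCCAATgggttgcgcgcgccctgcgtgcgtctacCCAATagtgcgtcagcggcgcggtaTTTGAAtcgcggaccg
Mcm6 (chr1:128359686-128359855, minus strand): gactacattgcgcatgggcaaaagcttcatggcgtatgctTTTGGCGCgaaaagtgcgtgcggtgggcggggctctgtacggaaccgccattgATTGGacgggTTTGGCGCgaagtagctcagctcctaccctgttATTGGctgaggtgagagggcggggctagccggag
Hells (chr19:38930840-38931009, plus strand): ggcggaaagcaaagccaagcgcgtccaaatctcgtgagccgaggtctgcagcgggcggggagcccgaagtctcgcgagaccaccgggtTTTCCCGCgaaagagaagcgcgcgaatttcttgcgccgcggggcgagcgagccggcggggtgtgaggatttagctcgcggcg

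The Cdk1, Ube2c and Ccnb2 windows each held TTTGAA or TTCAAA together with CCAAT boxes, and the Cdk1 window held an E2F form as well. The Mcm6 and Hells windows held E2F letters and no TTTGAA, and the Mcm6 window also held 2 CCAAT boxes. Over windows from 250 bases before to 50 after the start, on both strands, TTTGAA was present in 33 of 47 promoters of a list of mitosis and G2 genes that were not in the rule (70.2%), in 6 of 46 promoters of a list of DNA replication and S phase genes (13.0%) and in 18.1% of all 27025 promoters. CCAAT was present in 74.5% of the mitosis promoters, 67.4% of the replication promoters and 37.9% of all promoters. One of the 3 E2F forms was present in 13 of 46 replication promoters (28.3%), in 3 of 47 mitosis promoters (6.38%) and in 1.91% of all promoters. TTTGAA was rare in the promoters of other genes that OPCs use, at 3 of 30 promoters of an OPC identity list (10.0%) and 1 of 29 promoters of a commitment and differentiation list (3.45%). RefSeq promoters were matched by symbol for 47 of 63 mitosis genes and 46 of 61 replication genes. These shares describe letters and were not tested.

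The rule genes themselves varied widely between the 121 cells. The summed cycling molecules had a median of 10, quartiles of 6 and 17 and a maximum of 60. All 6 genes were seen in 22 cells, 5 of them in 21, 4 in 25, 3 in 25, 2 in 19 and a single gene in 9. Top2a, which untangles DNA strands, was present in 88.4% of the cells, Mki67 in 67.8% and Birc5, a subunit of the chromosomal passenger complex, in 69.4%. Cdk1 was present in 57.0%, its partner Ccnb1 in 54.5% and Ube2c in 42.1%. At the threshold, 10 cells had a sum of 3, with a median of 3329 molecules per cell and medians of 14.5 molecules of the replication list and 6 of the mitosis list. The 30 OPCs just outside, with a sum of 2, had medians of 3276 molecules, 8 of the replication list and 6 of the mitosis list. Cells on the 2 sides of the threshold were therefore close in depth and in mitosis molecules. These values chose the cells and are a description.

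The OPC genes of the rule, apart from C1ql1, were at like pooled levels in cycling and resting OPCs. Pdgfra, the receptor for the OPC mitogen PDGF-AA, was present in 94.2% of cycling and 87.6% of resting OPCs, and over all cells pooled its level was 2026 counts scaled to a common total of molecules (CPM) in cycling and 1933 CPM in resting cells. Its chip medians were further apart, at 2610 and 1936 CPM. The pooled levels were 737 and 772 CPM for the proteoglycan gene Cspg4 (NG2), 711 and 793 CPM for Lhfpl3, and 1246 and 1323 CPM for the transcription factor Olig1. C1ql1, a secreted C1q-domain protein, had pooled levels of 166 and 270 CPM. The myelin genes were capped by the rule in both states. Mbp still had 163 molecules in 46 cycling OPCs (38.0%), at 330 CPM against 477 CPM in resting OPCs. Mag had 7 molecules in cycling OPCs, Mog had 1, and Mobp and Mal had none. In resting OPCs Mobp and Mal had only 8 and 6 molecules, so their zeros say little.

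The label of the cells was checked with markers of other types. Over all cycling OPCs, 8 microglial markers summed to 30.4 CPM (83.9 CPM in resting OPCs), and 7 of the 8 had no molecule. Pericyte markers summed to 16.2 CPM (96.3 CPM in resting OPCs), with 4 of 6 at 0. The meningeal markers of the rule summed to 48.6 CPM (57.8 CPM). The rule kept these under 3 molecules per cell in both states, so their low sum does not check the label. Endothelial markers summed to 66.9 CPM (33.1 CPM), and all of their molecules in cycling OPCs came from txE12.5 chips, where they reached 422 CPM in 1 chip. Astrocyte markers summed to 348 CPM (320 CPM) with Gjb6 and Agt at 0, and markers of ependymal cells and radial glia to 251 CPM (216 CPM). Neuron markers summed to 588 CPM (815 CPM), and 47 of the 121 cycling OPCs and 163 of the 436 resting OPCs held at least 3 of their molecules. The part of these markers in the results was not tested. Of 142 P7 wells that passed the cycling condition, 21 failed another condition, 13 of them by collagen molecules. Wells that caught 2 cells were not searched for or removed. No 2 wells held identical counts.

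Cycling OPCs held more molecules than resting OPCs, with medians of 3704 (from 1100 to 11631) and 2682 per cell. The cycling median was the higher one in 13 of 15 chips. Both states were set by raw molecule counts, so a deeper cell could meet the cycling condition more easily and the resting condition less easily. The choice of cells therefore favoured this difference in depth, and a difference apart from the choice was not tested. The summed molecules of the cycling OPCs of a chip ranged from 10871 to 75573, and both brain reporter chips, at 10933 and 10871, were the shallowest of the 15. Values from cells thinned to 1000 molecules are therefore given beside the results that depth could move.

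The share of OPCs that were cycling differed between chips. Its mean was highest in the spinal cord, although the range overlapped with those of the traced chips. In the spinal cord, 22.9%, 27.3%, 30.6% and 27.3% of the OPCs of chips 10, 11, 12 and 26 were cycling, a mean of 27.0% ± 3.16 (SD, n = 4). Chip 26 held only 11 OPCs, 3 of them cycling. In the brain reporter chips 21 and 22, 8.70% and 13.2% were cycling, a mean of 10.9% ± 3.16 (SD, n = 2). Every spinal cord chip was above both brain chips. The difference of 16.1 percentage points gave p = 0.0667 in a two-sided exact permutation test, the smallest p that 4 against 2 chips allow. With the traced brain chips added to the brain, a comparison chosen after seeing the data, the difference was 10.6 points with p = 0.0044 in the exact permutation test. That test takes chips as exchangeable, but all spinal cord chips came from experiment 136 and the pooled brain chips mixed mouse lines and other experiments. Its p therefore does not measure region alone. Spinal cord OPCs were deeper, so each cell was also thinned to 1000 molecules and counted as cycling with at least 1 molecule of the 6 genes, which gave 33.6% ± 8.07 (SD, n = 4) in the spinal cord and 15.7% ± 3.80 (SD, n = 2) in the brain with the same exact permutation p of 0.0667. As a share of all wells of a chip, whatever their type, the difference between spinal cord and brain reporter chips was 6.90 points (exact permutation p = 0.133). By that measure the mean was 15.4% in the spinal cord and 16.1% in txP3, so the spinal cord was not the highest group.

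**Figure D1:**
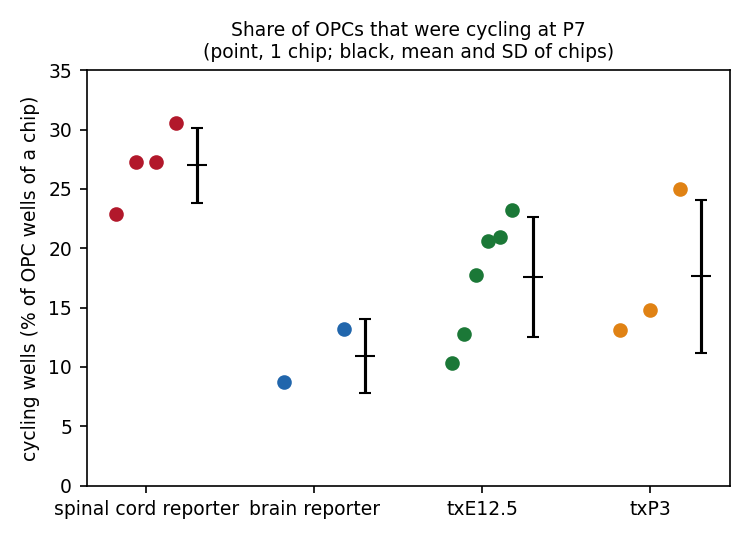
The percentage of P7 OPCs that were cycling (vertical axis) is plotted for each chip (points) of the 4 groups, with the mean and SD as a line and bar. The 4 spinal cord chips sit between 22.9% and 30.6%, above both brain reporter chips at 8.70% and 13.2%, and the traced chips spread from 10.3% to 25.0%.

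No difference in this share was detected between the 2 traced groups. In txE12.5 the cycling share ranged from 10.3% to 23.2% with a median of 19.2% and a mean of 17.6% ± 5.05 (SD, n = 6). In txP3 it was 25.0%, 14.8% and 13.1% in chips 18, 19 and 20, a mean of 17.6% ± 6.43 (SD, n = 3). The difference was -0.04 points, with p = 1.00 in the exact permutation test (two-sided). Within txE12.5, the chips of experiment 161 had a mean of 21.6% ± 1.43 (SD, n = 3) and those of experiment 162 a mean of 13.6% ± 3.79 (SD, n = 3), on either side of txP3. The traced brain chips together exceeded the reporter brain chips by 6.69 points (exact permutation p = 0.164).

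The 121 cells, chosen mostly by genes of G2 and mitosis, were also described by their molecules of the mitosis and replication lists. Cycling OPCs held a median of 38 molecules of the mitosis list (highest 146) and 20 of the replication list (highest 113), whereas resting OPCs held medians of 1 and 4. With every cell thinned to 1000 molecules the medians were 10 and 5 in cycling OPCs and 0 and 1.5 in resting OPCs. Molecules of the mitosis list outnumbered those of the replication list in 82 cells, and the reverse held in 39 cells. Only 3 cycling OPCs held no molecule of the replication list, and none lacked the mitosis list. The 6 genes of the rule are themselves mostly genes of G2 and mitosis, so the choice of cells favours a surplus of the mitosis list. The lists also had unlike levels in resting OPCs. The 82 and 39 cells are therefore a description and no call of phase.

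**Figure D2:**
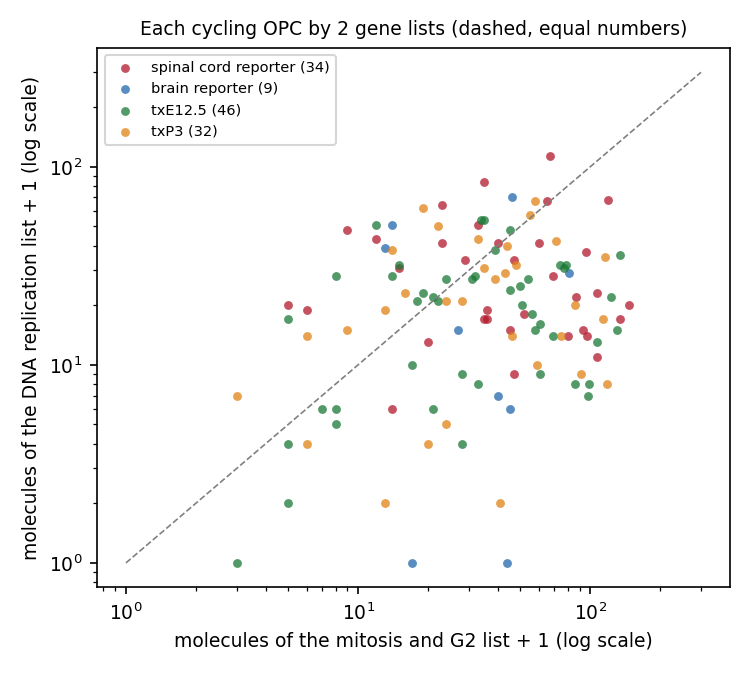
Each point is 1 of the 121 cycling OPCs, coloured by group, with its molecules of the mitosis list (horizontal axis) and of the replication list (vertical axis), both plus 1 on log axes, and the dashed line marks equal numbers. The cloud lies mostly below the line, with 82 cells below it and 39 above it, a surplus that the choice of cells favours.

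No difference in the balance of the 2 lists was detected between groups, on few chips. The log2 ratio of summed replication to summed mitosis molecules per chip was -0.90 ± 0.59 (SD, n = 4) in the spinal cord and -0.59 ± 0.31 (SD, n = 2) in the brain reporter chips (two-sided exact permutation p = 0.600). The ratio was -1.36 ± 0.95 (SD, n = 6) in txE12.5 and -0.82 ± 0.34 (SD, n = 3) in txP3 (exact permutation p = 0.417). Spinal cord chip 26 (-1.73) and txE12.5 chip 17 (-2.98), the lowest of their groups, held 3 cycling OPCs each.

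Cycling and resting OPCs were next set side by side, gene by gene, over the 15 chips. Both kinds of cell were summed within each chip, and edgeR's quasi-likelihood fit held the chip as a block. The cells had been chosen by this same contrast, so that the counts past an adjusted p of 0.05 and the fold changes that follow describe the cells chosen and test nothing. The 21 genes of the rule were left out. Of 1107 genes deep enough to be fitted, 42 were higher (3.79%) and 22 lower (1.99%) in cycling OPCs, and the median log2 fold change of all fitted genes was -0.04. A gene could pass that depth filter through the sums of either state alone. The 42 included 21 genes of the mitosis, replication and chromatin lists. Of the 1107 genes, 19 of the 42 were higher in all 15 chips (1.72%) and 2 of the 22 were lower in all 15 (0.181%). DESeq2, which gave an adjusted p for 7769 genes, placed 227 higher (2.92%) and 35 lower (0.451%), and values for genes too shallow for edgeR are taken from it and named as such. The edgeR count of 64 fell to 15 with every cell thinned to 1000 molecules, and to 31 when resting OPCs shallower than the median cycling OPC were left out. The 12 higher genes with the largest changes were past 0.05 in every alternative over chips of all 4 groups in which they could be fitted, whereas a fit within the 2 brain reporter chips alone, added after seeing the data, placed no gene higher.

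Genes of G2 and mitosis rose furthest. All 5 genes of the mitosis list that edgeR could fit were higher (Cenpf, Pbk, Smc2, Smc4 and Bub3), with a median log2 fold change of 3.18, and DESeq2 placed 56 of 60 higher and none lower. The depth filter could keep such genes through their cycling sums alone, so that 5 of 5 and this median were favoured in advance. Over all resting OPCs, Cenpf and Pbk held 11 and 12 molecules. Cenpf, a kinetochore protein, had a lowest, median and highest chip level of 24.4, 573 and 1010 CPM in cycling and 0, 8.96 and 31.5 CPM in resting OPCs. Its log2 fold change was 5.76 ± 0.33 (SE, n = 15 chips), it was higher in every chip, and it was present in 58.7% of cycling and 2.06% of resting OPCs. Pbk, a mitotic kinase, had levels of 184, 410 and 1100 CPM against 0, 8.37 and 47.2 CPM, with no overlap between the states (log2 5.42 ± 0.34). The condensin subunits Smc2 (log2 3.18 ± 0.26) and Smc4 (3.01 ± 0.31), which compact chromosomes, did not overlap either. Bub3, a subunit of the spindle checkpoint, had a smaller change of 1.33 ± 0.24 and was higher in 14 of 15 chips. By DESeq2 the log2 fold changes were 6.29 ± 0.52 for Prc1, which bundles spindle microtubules, 6.16 ± 0.59 for the kinesin Cenpe and 5.86 ± 0.50 for the spindle protein Nusap1.

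Kpna2, an importin that is most abundant in G2, had levels of 219, 996 and 2649 CPM in cycling and 23.3, 73.6 and 205 CPM in resting OPCs (log2 3.57 ± 0.21) and did not overlap. Ccnb2, whose promoter is shown above, had a median of 158 CPM in cycling and 0 CPM in resting OPCs and was higher in 13 of 15 chips, with a log2 fold change of 4.12 ± 0.64 by DESeq2. The mitotic kinases Plk1 (4.29 ± 0.82) and Aurkb (4.40 ± 0.64) were shallower, with 41 and 52 molecules in all 121 cells.

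Some of the replication genes were higher as well. Pcna, the sliding clamp of DNA polymerase, had levels of 85.4, 419 and 1738 CPM against 15.7, 99.7 and 250 CPM, and was higher in all 15 chips although the states overlapped (log2 2.21 ± 0.24). 2810417H13Rik, which encodes a Pcna-associated factor, ranged over 185, 578 and 823 CPM against 0, 24.9 and 183 CPM without overlap (log2 4.16 ± 0.29). These were 2 of the 3 genes of the replication list that edgeR could fit. DESeq2 placed 26 of 50 higher and none lower. The enzymes of nucleotide supply were among them, with log2 fold changes of 3.86 ± 0.38 for Rrm2 (ribonucleotide reductase), 4.34 ± 0.63 for Tk1 (thymidine kinase) and 2.59 ± 0.43 for Tyms (thymidylate synthase). The helicase subunits gave smaller values of 2.20 ± 0.41 for Mcm7, 2.09 ± 0.50 for Mcm5 and 1.38 ± 0.44 for Mcm6, and Mcm2 gave 0.39 ± 0.53 and was not called. Hells gave 2.04 ± 0.57. Mcm2 was higher in only 6 of 15 chips, and at 29 molecules over the 121 cells its difference was not detectable at this depth.

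Chromatin and cytoskeletal genes of dividing cells changed by less on the log2 scale than the leading mitosis genes. Of the 41 genes in this list, 18 could be fitted and 14 were higher, with a median log2 fold change of 0.91. The histone variant H2afz had levels of 1380, 2779 and 5041 CPM against 236, 593 and 1083 CPM, so that the lowest cycling chip lay above the highest resting chip (log2 2.21 ± 0.13). Hmgb2, a DNA-bending chromatin protein, had the largest change of the list (4.39 ± 0.25), also without overlap. The nucleosome-binding Hmgn2 (2.14 ± 0.14), the tubulins Tuba1b (1.76 ± 0.13) and Tubb5 (1.49 ± 0.12) and the related Hmgb1 (0.99 ± 0.12) were higher in all 15 chips. Ptma rose little (0.38 ± 0.11) and its sign turned without the filter on low counts, to -0.02. The histone row Hist1h2ap_loc1 was higher by 4.43 ± 0.28, but near-identical histone copies share reads and its value is uncertain. 2700094K13Rik was the last of the 12 genes with the largest changes (1.99 ± 0.24).

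**Figure D3:**
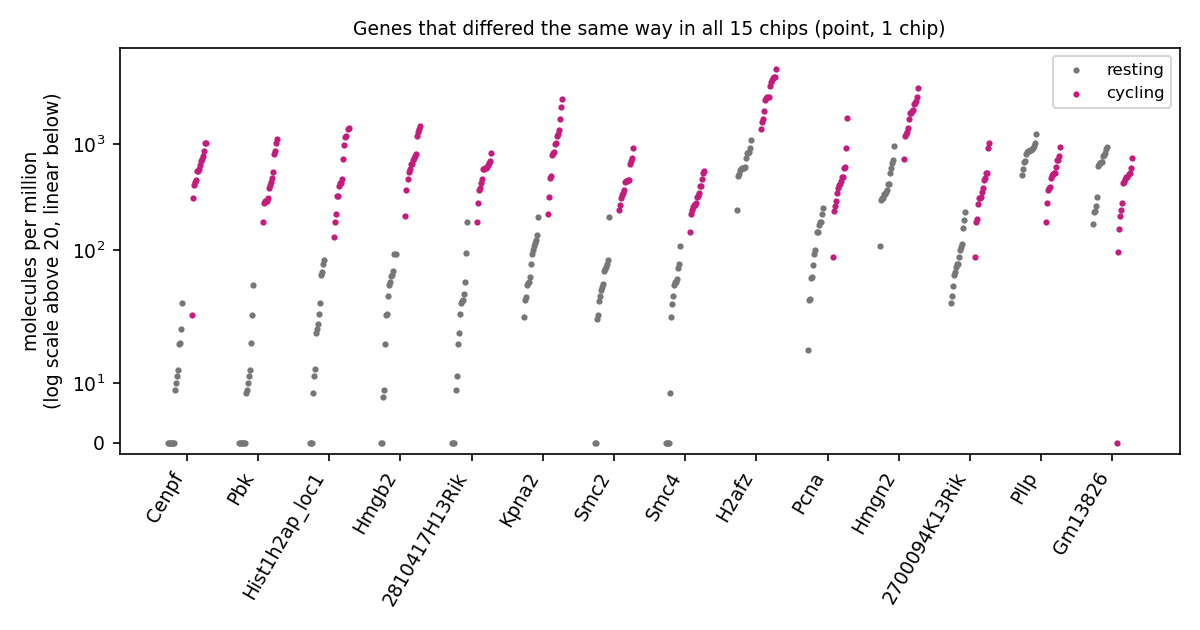
CPM of 14 genes in resting and cycling OPCs is plotted for each of the 15 chips (points, on an axis that is linear near 0 and logarithmic above). Pbk, Smc2, Hmgb2, Kpna2 and H2afz show no overlap between the states, whereas Pllp and Gm13826, the 2 genes lower in all 15 chips, overlap.

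Few single regulators of the cycle were called. None of the 3 genes of the regulator list that edgeR could fit was called, and DESeq2 placed 6 of 31 higher: Foxm1 (log2 4.16 ± 0.70), the transcription factor of G2 genes; Fbxo5 (4.44 ± 0.50), an inhibitor of the anaphase-promoting complex; Rbl1, E2f8, and the Cdk inhibitors Cdkn2c (2.26 ± 0.50) and Cdkn2d. Ccnd1, the D-type cyclin that couples mitogens to cell cycle entry, had medians of 322 CPM in cycling and 399 CPM in resting OPCs (log2 -0.24 ± 0.20) and was higher in 4 of 15 chips. Its partner kinase Cdk4 gave 0.41 ± 0.18. Ccnd2 (-0.50 ± 0.29) and Ccnd3 (0.08 ± 0.45), both by DESeq2, were not called either. The D-type cyclins therefore had molecules in OPCs whether or not the 6 genes of the rule were seen.

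Few genes of OPC identity were past 0.05. Of 28 fitted genes of this list, none was higher, 2 were lower (Gpr17 and Cd9), and the median log2 fold change was -0.05, against -0.04 for all fitted genes. The lineage factor Olig2 had a median of 569 CPM in both states (log2 -0.05 ± 0.16). Sox10 (-0.25 ± 0.16), the matrix proteoglycan Vcan (-0.03 ± 0.15) and the receptor phosphatase Ptprz1 (0.30 ± 0.11) were not called. Gria2, a subunit of the AMPA-type glutamate receptor through which OPCs receive synaptic input, gave 0.05 ± 0.13, and none of the 8 fitted genes of the channel and receptor list was called.

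Some genes of the next step of the lineage were lower. No gene of the commitment list was part of the rule, so committed precursors could be among the resting OPCs, and their part was not tested. Of 14 fitted genes of the commitment list, 4 were lower and none higher, with a median of -0.31, and 2 of the 4, Gpr17 and Cd9, also stood in the identity list. Bcas1, a marker of newly forming oligodendrocytes, had levels of 77.7, 368 and 1051 CPM in cycling and 241, 834 and 2084 CPM in resting OPCs and was lower in 12 of 15 chips (log2 -0.89 ± 0.18). Gpr17, a receptor of committed precursors, gave -0.58 ± 0.16 (lower in 11 of 15 chips), the tetraspanin Cd9 -0.58 ± 0.12 (13 of 15) and the myelin enzyme Cnp -0.60 ± 0.18 (12 of 15). The states overlapped for all 4 genes, and Gpr17 and Cnp were no longer past 0.05 in 8 of 25 and 10 of 24 alternatives. By DESeq2, Bmp4 gave -1.40 ± 0.36.

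The 2 genes lower in all 15 chips were Pllp, a membrane proteolipid of myelinating cells (log2 -0.60 ± 0.14), and Gm13826 (-0.54 ± 0.16). Pllp had levels of 183, 516 and 934 CPM in cycling and 504, 858 and 1246 CPM in resting OPCs. Other lower genes, chosen after their values were seen, were the actin-binding Tmsb4x (-0.80 ± 0.12), S100a1 (-0.77 ± 0.15) and the myelin glycoprotein Omg (-0.64 ± 0.19), each lower in 13 or 14 of 15 chips. Among 5 fitted immediate early and stress genes, the chaperone Hsp90aa1 alone was higher (0.41 ± 0.13), and its value was near 0 without the filter on low counts. None of 20 fitted genes of glycolysis and growth metabolism was called.

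Sums over each list were also compared chip by chip. The log2 ratio of summed CPM in cycling over resting OPCs of a chip ranged from 2.82 to 5.24 (median 4.19) for the mitosis list and from 0.62 to 1.67 (median 1.07) for the chromatin list, above 0 in 15 of 15 chips. The regulator list was above 0 in all 15 chips too, by less, from 0.07 to 0.87 (median 0.55). For the replication list it ranged from -0.18 to 2.38 (median 1.78). Its only negative chip was the txE12.5 chip 17, which held 3 cycling OPCs. The commitment list ranged from -1.70 to 0.14 (median -0.58) and the identity list from -0.65 to 0.03 (median -0.17), each above 0 in 3 of 15 chips.

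**Figure D4:**
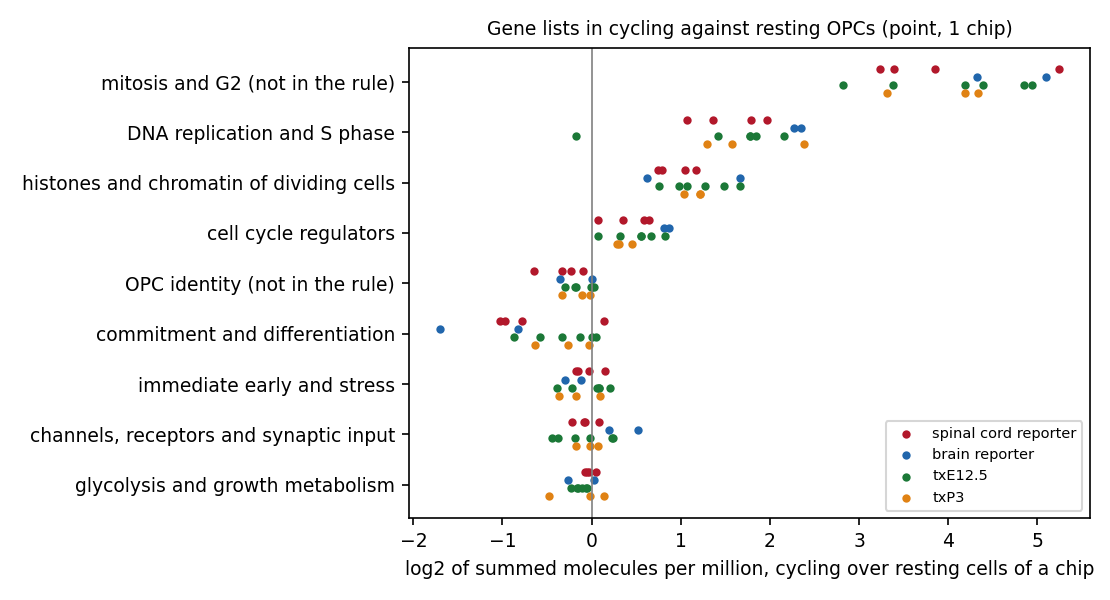
The log2 ratio of summed CPM in cycling over resting OPCs (horizontal axis) is plotted for each gene list, with 1 point per chip and a vertical line at no difference. Mitosis, chromatin and regulator genes lie above 0 in all 15 chips, replication genes in 14, and identity and commitment genes in 3 each.

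The next comparison asked whether cycling OPCs differed between the spinal cord and the brain of reporter mice. It does not use the contrast that chose the cells, but it rests on 9 brain cells in 2 shallow chips. Of 1396 genes tested by edgeR's quasi-likelihood test over the group sums per chip, 53 were higher (3.8%) and 20 lower (1.43%) in the spinal cord at an adjusted p of 0.05. The chips of the groups did not overlap for all 53 and for 19 of the 20, against 432 of all 1396 genes (30.9%). The median log2 fold change of all tested genes was 0.26, and with RLE in place of TMM scaling it was 0.05, with 31 genes higher and 25 lower. DESeq2 called 19 higher (2.15%) and 25 lower (2.83%) of 882. The log2 fold changes of this comparison are therefore given below after subtraction of that median of 0.26, except where called fitted. Each SE, adjusted p and call belongs to the fitted change before that subtraction, and the shifted values were not tested. No brain molecule was counted for 12 of the 53 higher genes. Without brain chip 22 the calls fell to 16 in all, without brain chip 21 to 27 and without spinal cord chip 10 to 48. They fell to 19 with cells thinned to 1000 molecules and to 28 with a cycling sum of 2 as the threshold. Without the filter on low counts 41 genes were called, all of them higher in the spinal cord and none lower. The median log2 fold change of that fit was 1.24. All of the called genes named below kept their direction in every alternative in which they could be fitted. Only Eef1a1 and Gm12191 among them stayed past 0.05 in every one. Id2 was no longer called in 7 of 22 alternatives, Cnp and Kcnip3 in 5 of 22 each, and Emid1 and AI854517 in 5 of 21 each.

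Several other features moved with the 2 groups. Molecules of 80 ribosomal protein genes, a set chosen after the values were seen, made up 5.99%, 5.90%, 6.04% and 7.41% of the molecules of cycling OPCs in the spinal cord and 3.26% and 2.28% in the brain reporter chips. In the resting OPCs of the same chips they made up from 5.78% to 7.17% and 4.64% and 4.39%. Of the 53 higher genes 16 belonged to that set, and 66 of its 67 tested genes had a positive fitted change. Sex differed too. Xist, the transcript that silences an X chromosome in females, was seen in 0 of 34 spinal cord cycling OPCs, and 22 of these cells held Y-linked molecules (Ddx3y, Eif2s3y, Kdm5d or Uty). With cells taken as independent draws, 0 of 34 allows a share of up to 8.82% with a molecule. The cells all came from experiment 136, so that bound does not cover other mice. Among the 9 brain cells, 5 held Xist and 2 held Y-linked molecules. Median depth was 5271.5 molecules per cycling OPC in the spinal cord and 2068 in the brain reporter chips. Summed Hox and forebrain patterning genes had means of 680 CPM in the spinal cord and 91.7 CPM in the brain reporter chips. The parts of region, experiment, sex and depth in the differences cannot be told apart.

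A few genes of OPC identity were lower in the spinal cord. Of 27 tested genes of this list, 5 were lower and none higher, and their median fitted log2 fold change was -0.47, against 0.26 for all tested genes. Ednrb, the endothelin receptor B, had levels of 210, 212, 267 and 233 CPM in the spinal cord chips and 823 and 1472 CPM in the brain chips. The groups did not overlap, and the log2 fold change was -2.43 ± 0.50 (edgeR adjusted p = 0.0022). The resting OPCs gave a fitted change of -2.92 for the same gene, and the traced brain chips had from 622 to 1998 CPM in cycling cells, so that the spinal cord was below all 11 brain chips. Ptprz1 had levels of 1051, 1389, 1390 and 1243 CPM in the spinal cord and 2835 and 5427 CPM in the brain (log2 -1.85 ± 0.36, edgeR adjusted p = 0.0021). It too was lower in resting OPCs (fitted change of -1.19, adjusted p = 0.016).

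Emid1, an extracellular matrix protein, had 0, 66.2, 0 and 0 CPM in the spinal cord against 366 and 460 CPM in the brain (log2 -3.91 ± 0.95, edgeR adjusted p = 0.0076), that is, 5 and 9 molecules. The potassium channel-interacting protein Kcnip3 (-2.52 ± 0.60) and the protocadherin Pcdh15 (-2.36 ± 0.54) completed the 5. In resting OPCs these 3 genes did not pass the test, with adjusted p of 0.255, 0.775 and 0.151. Gria2 was lower by edgeR as well (-2.17 ± 0.41, adjusted p = 0.00089), at 762, 450, 400 and 932 CPM against 1738 and 3036 CPM. DESeq2 also called all 6 of these genes.

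The lineage factors did not pass the test. Olig2 had levels of 263, 569, 438 and 233 CPM in the spinal cord and 366 and 644 CPM in the brain, which overlap. Sox10 had 289, 318, 343 and 466 CPM against 1189 and 460 CPM (log2 -1.40 ± 0.55, edgeR adjusted p = 0.224). Among the rule genes, given without a test, Pdgfra had a mean of 744 CPM in the spinal cord, 3164 CPM in the brain reporter chips, 2610 CPM in txE12.5 and 3063 CPM in txP3.

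A few genes of the commitment list were higher in the spinal cord. Of 13 tested genes of this list, 3 were higher by edgeR and none lower. The deacetylase Sirt2 had levels of 1813, 741, 800 and 544 CPM in the spinal cord and 183 and 0 CPM in the brain (log2 3.27 ± 0.81, edgeR adjusted p = 0.0021). Cnp had levels of 841, 675, 647 and 544 CPM against 0 and 184 CPM (log2 2.72 ± 0.88, adjusted p = 0.021). Neither gene overlapped between the groups, and both rested on 2 brain molecules. DESeq2 called Sirt2 and not Cnp. In resting OPCs neither passed the test, and their brain levels there were from 600 to 1056 CPM, above those of the 9 cycling cells.

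Cell cycle genes showed few differences by region. None of 39 tested mitosis genes was called by edgeR (DESeq2 called Tacc3 lower), and their median fitted change was -0.30. Pcna was lower in the spinal cord, at 263, 344, 419 and 233 CPM against 1738 and 920 CPM (log2 -2.10 ± 0.50, adjusted p = 0.011). Pcna in resting OPCs did not pass the test (adjusted p = 0.424), and the traced brain chips, from 85.4 to 609 CPM, overlapped with the spinal cord. Ccnd1 had 552, 966, 362 and 388 CPM in the spinal cord and no molecule in either brain reporter chip, which made it at least 4.79-fold higher (edgeR adjusted p = 0.0023), counting 3 molecules over the brain chips as the floor. In the resting OPCs of those brain chips Ccnd1 was at 211 and 267 CPM, and in traced cycling OPCs it ran from 85.4 to 759 CPM, overlapping with the spinal cord. Id2, an inhibitor of differentiation factors, was at least 3.04-fold higher by the same floor (edgeR adjusted p = 0.016, DESeq2 0.064). The histone chaperone Anp32e was at least 3.21-fold higher.

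The genes with the largest changes otherwise were mostly of translation or thinly counted. Rpl11 (at least 4.14-fold) and Rps26 (at least 3.37-fold), both of the ribosome, and the unnamed Gm12191 (at least 5.72-fold) and Gm15772 (at least 4.38-fold) were higher and had no brain molecule. Such unnamed rows can hold reads of processed ribosomal copies, and their identity is uncertain. Eef1a1, the translation elongation factor, had levels of 3625, 4049, 4245 and 4971 CPM against 1006 and 460 CPM (log2 2.36 ± 0.47, edgeR adjusted p = 9.7e-06), and it was also higher in resting OPCs (fitted change 1.69). Of the lower genes, Chl1, a cell adhesion molecule, had 1 molecule in the spinal cord and 7 in the brain and was lower in resting OPCs too (fitted changes of -4.98 and -5.29). Rab31 (-3.15 ± 0.70) and AI854517 (-3.09 ± 0.79) had 19 and 14 molecules in the deeper spinal cord sums and 20 and 14 in the brain. Tsix, the antisense partner of Xist, was at least 13.7-fold lower, with 274 and 184 CPM in the brain and none in the spinal cord. It was no longer called in 12 of 20 alternatives, and DESeq2 gave it no adjusted p.

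Most of the differences had the same sign in resting OPCs. Of the 53 higher genes 48, and of the 20 lower genes all 19 that could be tested, had the same sign in the resting OPCs of the same chips, where 9 and 7 of them were called. Over all genes tested in both states, the sign was shared by 497 of 810 genes with a positive change in cycling OPCs (61.4%) and by 344 of 500 with a negative one (68.8%). In resting OPCs, 25 of 3733 genes were higher (0.67%) and 29 lower (0.777%) by edgeR. The resting cells are other cells of the same chips and experiments, so these signs are not independent of them. The interaction of region and state, which asks whether the regional difference itself differed between cycling and resting OPCs, gave no call among 1107 genes by edgeR (0%), with 124 genes at an unadjusted p under 0.05, and none by DESeq2. For Ccnd1 its adjusted p was 0.178. With the mean of all 3 brain groups in place of the reporter chips, a comparison added after seeing the data, 98 genes were higher (7.02%) and 38 lower (2.72%). The same 5 identity genes were among the lower ones, with Sox9, Bcan, Cspg5 and Fabp7 besides. That comparison also mixes mouse lines and experiments.

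**Figure D5:**
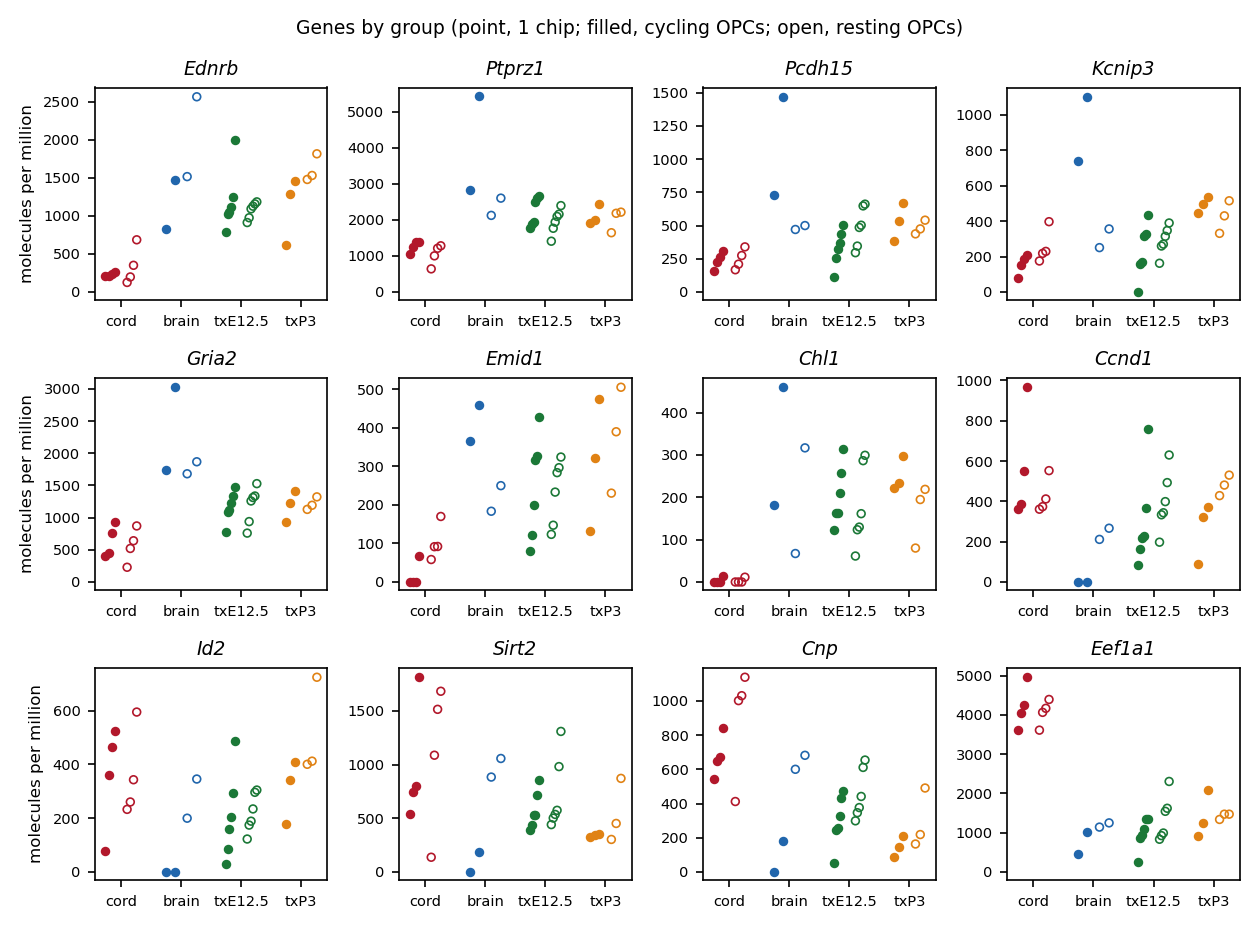
CPM of 12 genes is plotted for each chip of the 4 groups, filled for cycling and open for resting OPCs. Ednrb and Ptprz1 are lowest in the spinal cord in both states, whereas Ccnd1 is at 0 in the cycling OPCs of both brain reporter chips only.

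The last comparisons asked whether the origin of the cells mattered. Between txE12.5 and txP3 cycling OPCs, 2 of 1396 genes were higher (0.143%) and none lower (0%) by edgeR, with 57 genes at an unadjusted p under 0.05, and DESeq2 called none. Chips did not overlap for 28 genes (2.01%), neither of the 2 among them. One was Tsix, at 580, 573 and 634 CPM in the chips of experiment 161 and at 0 in every chip of experiment 162 and of txP3 (edgeR adjusted p = 0.0011), and no longer called in 12 of 22 alternatives. All 29 cycling OPCs of experiment 161 held Xist and 0 held a Y-linked molecule (up to 10.3% allowed), whereas 0 of the 17 of experiment 162 (up to 17.6%) and 0 of the 32 of txP3 (up to 9.38%) held Xist. The allowed shares take cells as independent draws and do not cover other mice. Sex therefore moved with experiment and with tamoxifen time, and its part was not tested. None of the 39 tested mitosis genes, 9 replication genes and 27 identity genes differed by edgeR. The interaction of tracing and state gave no call by edgeR (0%), with 37 genes at an unadjusted p under 0.05, nor by DESeq2.

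Traced and reporter brain cycling OPCs differed in 1 gene of 1396 by edgeR (0.0716%), with 197 at an unadjusted p under 0.05 and none called by DESeq2. This was Ndufa13, a subunit of mitochondrial complex I, higher in the traced cells, with 0 and 92.0 CPM in the 2 reporter chips. Its fitted log2 fold change was 3.98 ± 0.94 (edgeR adjusted p = 0.035), or 3.78 after subtraction of the median of 0.21. It was no longer called in 13 of 22 alternatives. The mouse line and the experiment also differed between these chips and cannot be told apart from tracing.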

How the data were processed

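The authors deposited counts of unique mRNA molecules per gene and well, 1 table per C1 chip, made from STRT-seq reads on mouse build mm10 per the labels. For the single-cell reads, aligner and counting settings were not given in the sources used here. Mitochondrial, spike-in and marker rows were left out of totals. Wells with at least 1000 molecules were kept, and groups came from the labels. Chip 9, whose stage was unclear, and chip 23, which held no OPC, were not used. Members and gene lists were chosen with earlier results of these data known. Molecules of cycling and of resting OPCs were summed per chip (at least 3 cells), filtered with filterByExpr, scaled by TMM and tested with the quasi-likelihood test of edgeR 4.0.16 (R 4.3.3) with Benjamini-Hochberg adjustment over all genes tested, at 0.05. The 21 genes of the rule were left out. Cycling and resting cells were fitted with the chip as block, and groups were compared in 1 fit over all 4. DESeq2 1.42.0 was an alternative, as were RLE scaling, no filter, thinning to 1000 molecules, other thresholds and leaving out chips. Shares were compared with two-sided exact permutation tests over chips. Named genes were the 12 with the largest change in each direction of the same sign in every chip at 50 CPM or more, the 5 with the largest change in each direction whose chips did not overlap in each group comparison, and any gene of the lists. The fits were tested on simulated data. Some genes that are counted are not reported here by name. Counts limit the precision, and intervals between chips cover technical and biological spread together.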

Additional observations from a re-analysis of the deposited data

Results flagged for a closer look

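In groups of 4 or more chips, 29 sets of values were searched for a chip far from the others, and 3 were found, where chance flags about 1 in 20. Spinal cord chip 26, with 3 cycling OPCs, had 7.41% of its molecules from ribosomal protein genes, against 5.90% to 6.04% in the other 3 chips. Spinal cord chip 11, the deepest of the 4, was the only one with molecules of Chl1 (13.2 CPM, 1 molecule) and of Emid1 (66.2 CPM, 5 molecules), the others being at 0. Any count in 1 chip is flagged when the others are at 0, so the rate of 1 in 20 does not hold for these genes.

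Cycling genes were also seen in wells outside the comparisons. On chip 9, which was labelled as spinal cord of P7 but was left out, 11 of 78 wells reached a sum of 3 cycling molecules, and none was a cycling OPC. On the spinal cord chip 23, 5 of 14 wells did so, again with no OPC among them. On the E13.5 chips, 87 of 502 wells did so, and 8 of these also met the OPC conditions.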

How the results depend on the processing

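All 41 genes called between spinal cord and brain without the filter were higher in the spinal cord. Where a count moved, the cause was not tested. Counts of genes called are given in both directions together. For cycling against resting OPCs (64 genes) they were 262 with DESeq2, 497 without the filter, 15 with cells thinned, 37 without the chip block, 31 with resting cells as deep as the median cycling cell, and from 51 to 72 with 1 chip left out. Within the brain reporter chips alone 1 gene was called and within txE12.5 alone 20, both added after seeing the data. For spinal cord against brain (73) they were 44 with DESeq2, 41 without the filter, 19 with cells thinned, 28 at a cycling sum of 2, 136 against all 3 brain groups (added after seeing the data), and from 16 to 70 with 1 chip left out. For txE12.5 against txP3 (2) they were 0 with DESeq2, 1 without the filter, 0 with cells thinned, 0 at a cycling sum of 5, 0 at a cycling sum of 2, 0 with only the chips of the groups compared, 0 and 3 with experiment 162 or 161 alone (added after seeing the data), and from 0 to 3 with 1 chip left out. For traced against reporter brain (1) they were 0 with DESeq2, 0 with RLE, 3 without the filter, 5 with at least 5 cells per chip, 2 with cells thinned, 0 at cycling sums of 5 or of 2, 0 with only the chips compared, and from 0 to 4 with 1 chip left out. For the interaction of region and state (0) they were 19 without the filter, 1 with cells thinned, 1 at a cycling sum of 2, and from 0 to 1 with 1 chip left out, and for tracing and state they were 0 with each chip left out.

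The share difference between spinal cord and brain was 10.6 points with the traced chips added and ran from 13.8 to 18.3 with 1 chip left out. The share difference between txE12.5 and txP3 had no stable sign, at 3.93 points with experiment 161 alone and from -2.30 to 3.64 with 1 chip left out. That between traced and reporter brain ran from 4.46 to 8.92. The log2 ratios of replication to mitosis differed by -0.53 to -0.03 between spinal cord and brain and by -0.80 to -0.22 between txE12.5 and txP3, again with 1 chip left out. Without the filter, the change of Ptma turned to -0.022 and that of Hsp90aa1 to -0.00092. Chip 23 held no OPC and could not be added to the spinal cord. No paired analysis was possible because the groups share no chip number, and the chip was already the block between cycling and resting cells. Depth was a limit: the sums per chip left 1107 and 1396 genes to edgeR, and 12 of the 53 genes higher in the spinal cord had no molecule among the 9 brain cells.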
